A study of Mus musculus with 4 samples.

Results

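The subject is a set of 6 keratin genes, Krt4, Krt7, Krt8, Krt13, Krt18 and Krt19, whose products are known mainly from simple and mucosal epithelia rather than from cornified skin, read in whole skin of newborn mice. They were chosen by gene symbol among 13674 named genes on the arrays, and every probe set that the platform annotation gives to exactly 1 of them was taken. This found 13 probe sets, 11 on the first of 2 Affymetrix array types and 2 on the second. The loricrin knockout group lacks loricrin, a major component of the envelope that hardens dead surface cells, and the wildtype group is its control. Both groups were FVB/N mice at postnatal day 0, and RNA came from the whole skin, so epidermis, hair follicles, dermis and the tissue beneath contributed together. Each group had 2 arrays, 1 of each type, so that each array type compared 1 knockout array with 1 wildtype array. The loricrin allele, the number of animals behind an array and their sex are unknown from the labels, as is whether the arrays titled as replicates held other RNA. The comparison asks whether skin that forms without loricrin has other amounts of these transcripts at birth.

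Keratins build the intermediate filaments of epithelial cells, and each filament pairs a type II keratin with a type I keratin. Krt8 (type II) and Krt18 (type I) are the primary pair of single-layered epithelia, and Krt7 and Krt19 join them in ducts and glands. Krt4 (type II) and Krt13 (type I) pair in the upper layers of stratified linings that do not cornify, such as mouth and oesophagus. In skin the simple keratins are known from the periderm, the transient outer layer of the embryo, from Merkel cells, the touch receptors of the epidermis, and from glands, while Krt19 also marks cells of the hair follicle.

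The genes lie in the 2 keratin clusters of the mouse genome, with Krt4, Krt7, Krt8 and Krt18 on chromosome 15 and Krt13 and Krt19 on chromosome 11. In the RefSeq annotation no protein-coding gene lies between Krt8 and Krt18, only 2 long non-coding RNA genes. Among protein-coding genes the members of that pair are therefore neighbours, although they belong to different keratin types. Promoter sequences of 4 of the 6 genes, Krt7, Krt8, Krt13 and Krt18, were taken from RefSeq (GRCm38.p6). There was no promoter entry for Krt4 and Krt19. Each window runs from 60 bases before an annotated start of transcription through its first 10 bases, 5′ to 3′ on the gene's own strand. Krt13 had 2 annotated starts, and the outermost was used. Whether the transcripts in this skin begin at these starts was not tested. Capitals mark the letters TATAA or ATAAA.
Krt7, chr15:101412343-101412412, plus strand: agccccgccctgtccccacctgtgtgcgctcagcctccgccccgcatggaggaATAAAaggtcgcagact
Krt8, chr15:102004333-102004402, minus strand: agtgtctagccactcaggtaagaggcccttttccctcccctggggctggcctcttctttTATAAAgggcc
Krt13, chr11:100121557-100121626, minus strand: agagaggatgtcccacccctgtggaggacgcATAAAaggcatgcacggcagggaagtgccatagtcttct
Krt18, chr15:102028156-102028225, plus strand: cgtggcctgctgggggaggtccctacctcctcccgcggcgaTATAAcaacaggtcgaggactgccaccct
All 4 windows held at least 1 of these motifs on the gene's strand, where 10.9% of all 32851 promoter windows of that length did (16.0% on either strand). TATAA was in 6.03% of windows and ATAAA in 8.15%, with windows that hold both counted in each share. In Krt8 both overlap as TATAAA. The motifs were picked after the sequences had been read, and a match is a string of letters, not a site. Its first base lay 29 bases before the annotated start in Krt13, 19 in Krt18 and 7 in Krt7, and in Krt8 1 base before it, so that the letters run across the start.

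The signals came from MAS5, which gives 1 linear intensity per probe set and array. Signals under a floor, 77.6 on the first array type and 133 on the second, were treated as too dim to compare, and 36.4% and 34.4% of the tested probe sets lay under it in both arrays. On the first array type loricrin, the check of the labels, read 2013 in knockout and 41225 in wildtype, 20.5-fold lower, and its other probe set there was below the floor in both arrays. Neither probe set could be placed relative to the deleted part of the gene. There the female-specific Xist read 857 in knockout and 24.7 in wildtype. The Y-linked Eif2s3y read 42.7 in knockout and 1071 in wildtype there, and on the second array type Y-linked Kdm5d read 12.2 and 27.8 in knockout, against 976 and 470 in wildtype. Sex and genotype therefore cannot be told apart in any value below. Of 8 keratinocyte markers on the first array type 5 were measured, such as Krtdap (22287 in knockout, 33377 in wildtype), with a median log2 ratio of -0.51 and none past 2-fold, while Dmkn, Krt5 and Krt14 were below the floor in both arrays. Krt1 and Krt10, among the 5, stood at -0.51 and -0.47, but at 0.034 and 0.050 under quantile normalization. Sbsn, the marker on the second type, had a ratio of -0.17.

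None of the 5 keratins with a signal above the floor differed by 2-fold or more between knockout and wildtype skin on either array type. Krt18 lay below the floor on each of its probe sets and could not be compared. Of the 13 probe sets, 7 had signals above the floor in both arrays and 6 lay below it in both. Over all tested probe sets of the first array type 0.869% passed 2-fold upwards in knockout and 1.22% downwards, and 1.48% and 1.84% did on the second, so a count of 0 among 7 measured probe sets is near what that background gives. These shares include the 36.4% and 34.4% of probe sets under the floor in both arrays, which could not pass, whereas the 7 lay above it. Of these 7 the knockout signal was the lower one, a negative log2 ratio, for 6, those of Krt4, Krt8, Krt13 and Krt19, and positive for Krt7. The 6 include 3 probe sets of Krt13, and among all probe sets above the floor in both arrays 48.1% were negative on the first type (second type 49.5%). The median ratio was -0.27 over the 6 probe sets measured on the first array type, beside 0.014 over all probe sets there with a mean log2 signal above the floor. With 1 array per genotype on each type no ratio has a replicate error, and in bulk skin fewer cells of a type and less RNA per cell cannot be told apart.

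**Figure D1:**
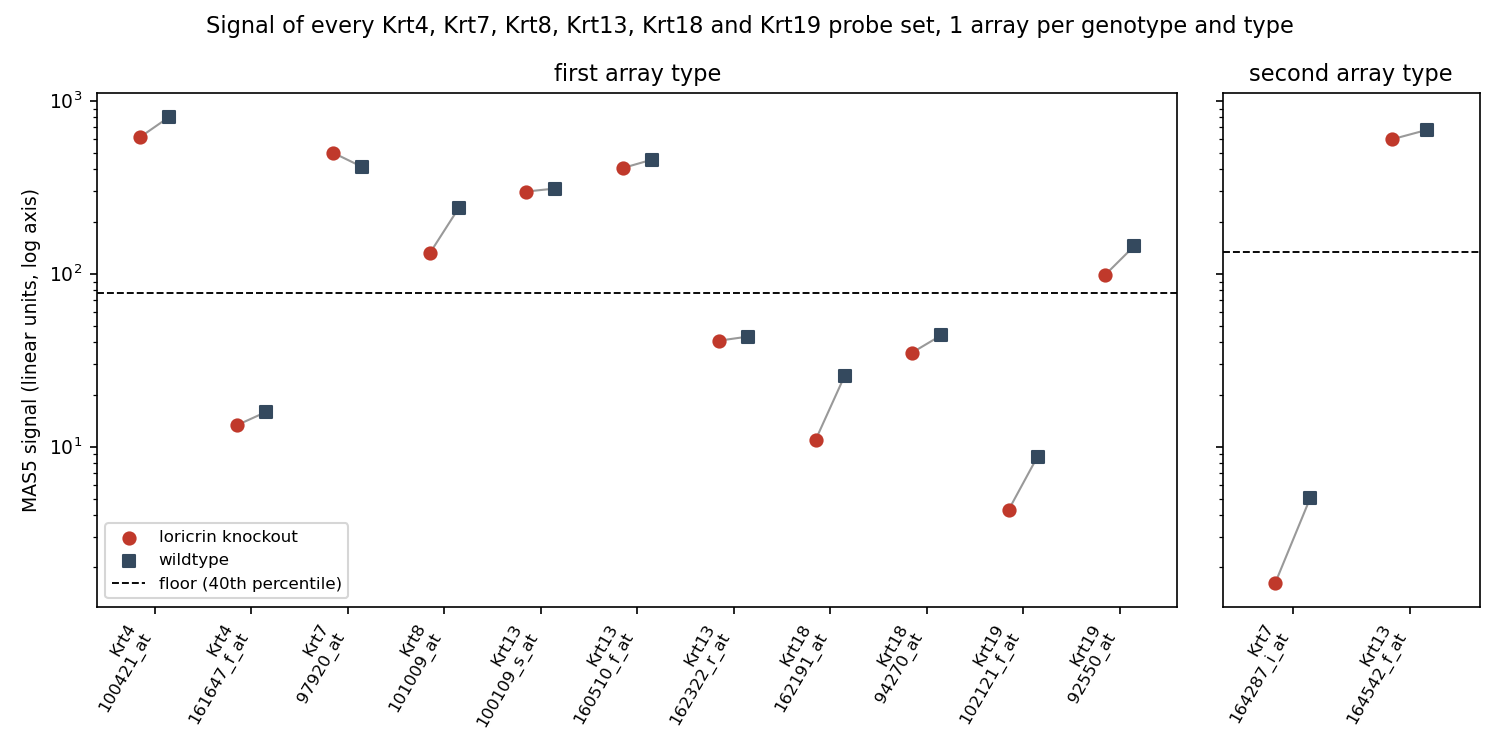
MAS5 signal (log axis) of every probe set of the 6 keratins, with the knockout array as a circle and the wildtype array as a square joined to it, in a panel per array type. Dashed lines are the floors at 77.6 and 133, and a reader should see 7 probe sets above them and 6 below, with Krt7 the one measured probe set whose knockout signal is higher.

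In place of replicates there was a pair of yardsticks. Where a gene had at least 2 probe sets above the floor on the first array type, the ratios of its brightest pair differed by a median of 0.30 on the log2 scale and by up to 0.78 at the 90th percentile of 838 genes. On the second array type these values were 0.32 and 0.87 over 1057 genes. The other yardstick was the share of probe sets of like signal, within 0.5 log2 units of the mean signal, that had a lower ratio than the member.

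Among the type II members Krt8, the type II keratin of simple epithelia, stood furthest from equality. Its only probe set (101009_at) had a signal of 131 in knockout against 240 in wildtype. The knockout signal was lower by a log2 ratio of -0.87, or 1.83-fold, which was short of the 2-fold rule. Of 1527 probe sets of like signal, 3.99% had a lower ratio, and their 5th and 95th percentiles were -0.79 and 0.69. Krt8 was the one member to pass 1.5-fold, a size reached downwards by 4.69% of all tested probe sets on that array type and upwards by 4.11% (6.98% and 6.08% on the second type, where Krt8 was not read). The ratio rests on 1 probe set, and its knockout signal of 131 was not far above the floor of 77.6. With the floor raised to the 60th percentile, where that signal falls under it, the ratio was -0.011.

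Krt4, the type II keratin of non-cornifying mucosa, had a signal of 617 in knockout against 807 in wildtype on probe set 100421_at. Its log2 ratio was -0.39, 1.31-fold lower in knockout, and 9.34% of 1327 probe sets of like signal had a lower ratio. The other Krt4 probe set (161647_f_at) was dim in both arrays, at 13.3 in knockout and 15.8 in wildtype. The difference on the bright probe set was of the size by which probe sets of 1 gene commonly disagree.

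Krt7, the type II keratin of ducts and glands, was the one member with a higher signal in knockout. Probe set 97920_at had a signal of 499 in knockout against 414 in wildtype, a log2 ratio of 0.27 or 1.21-fold. Of 1481 probe sets of like signal 72.8% had a lower ratio, so the difference was small beside theirs. The Krt7 probe set of the second array type (164287_i_at) read 1.62 in knockout and 5.04 in wildtype, far below the floor, and gave no second reading of the gene.

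Krt18, the type I partner of Krt8, could not be compared. Both of its probe sets lay under the floor of the first array type. Probe set 94270_at read 35.0 in knockout and 44.0 in wildtype, and 162191_at read 11.0 in knockout and 25.7 in wildtype. A signal under the floor does not show that a transcript was missing. Krt5 and Krt14, the main keratins of the basal epidermis, also read below the floor there, Krt5 at 6.70 in knockout and 9.43 in wildtype and Krt14 at 32.0 in knockout and 8.83 in wildtype.

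Krt19, a small type I keratin of ducts and of hair follicle cells, had a signal of 98.3 in knockout against 144 in wildtype on probe set 92550_at. The log2 ratio was -0.55, 1.47-fold lower in knockout, with both signals within reach of the floor. Of 1273 probe sets of like signal 11.9% had a lower ratio. The other probe set (102121_f_at) read 4.30 in knockout and 8.76 in wildtype and was too dim to compare.

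Krt13, the type I partner of Krt4 in mucosa, was the one member measured on both array types, and its readings lay close together. On the first type probe set 160510_f_at read 408 in knockout against 456 in wildtype, a log2 ratio of -0.16. Probe set 100109_s_at read 298 in knockout against 311 in wildtype there, a ratio of -0.058. On the second type 164542_f_at read 598 in knockout against 678 in wildtype, a ratio of -0.18. The 3 ratios averaged -0.13 ± 0.066 (SD over 3 probe sets, which are not replicate animals), all slightly lower in knockout. The other probe set (162322_r_at), at 41.0 in knockout and 43.3 in wildtype, was below the floor. All 4 carry a suffix that marks them as less specific than a plain probe set, s and f for sequence shared with other transcripts or a family, and r for relaxed design rules, so other type I keratins may add to the signal.

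For Krt13 the genotypes could also be compared over the 4 arrays together, blocking on their type. Among 1082 genes measured on both types, limma gave Krt13 a log2 ratio of -0.17 (SE 0.24, limma adjusted p = 0.886, lower on 2 of 2 array types). The 1 gene past an adjusted p of 0.05, Sox11, made up 0.0924% of those tested, and 10.4% had an unadjusted p under that value. Nothing says that the arrays held separate animals, so this p measures no spread between animals, and a p of this size does not show that Krt13 was equal in the genotypes.

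**Figure D2:**
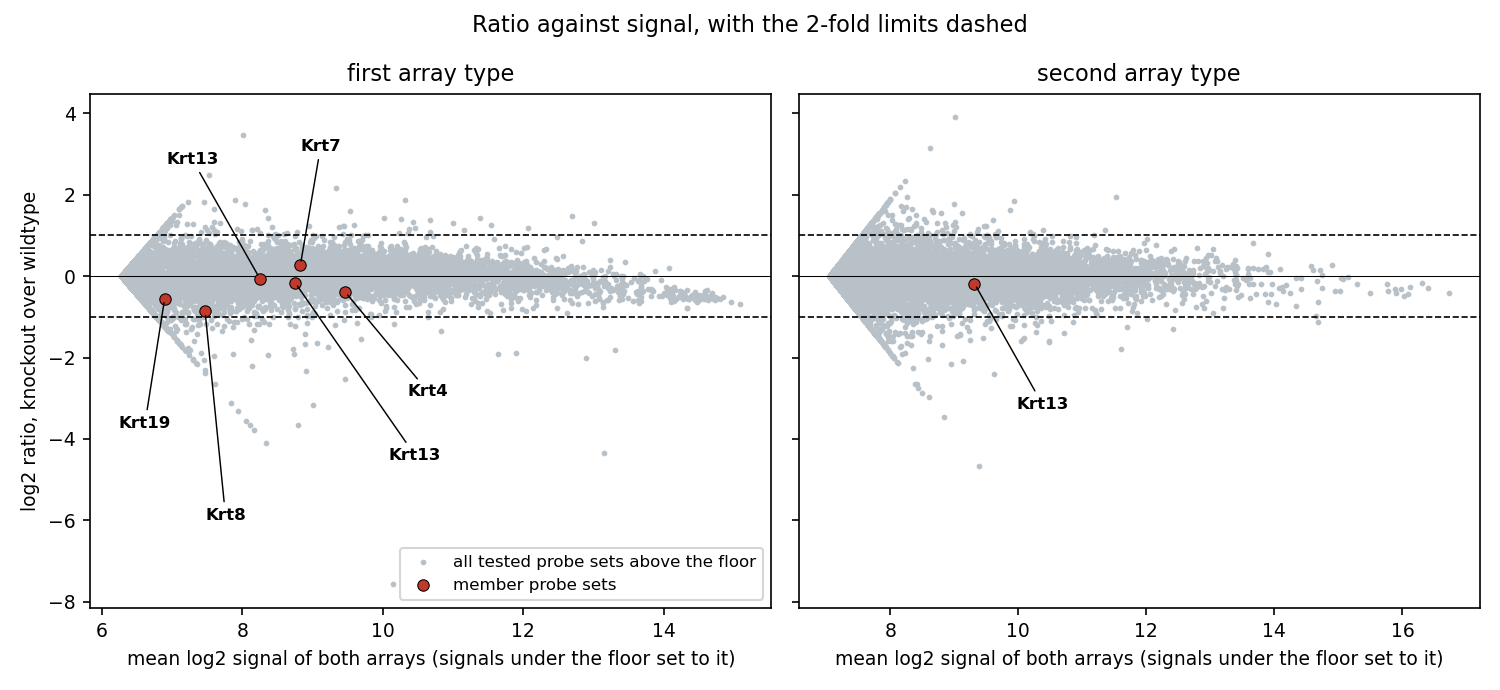
Log2 ratio of knockout over wildtype against the mean log2 signal of both arrays, in a panel per array type. Grey points are all tested probe sets above the floor in at least 1 array. Red points are the 7 measured probe sets of Krt4, Krt7, Krt8, Krt13 and Krt19. Dashed lines mark 2-fold, and all 7 lie between them, Krt8 at -0.87 closest to the lower one.

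The sign of most of these ratios depended on what was taken as constant between the arrays. The 9 bacterial and phage spike-in probe sets, which a hybridisation mix carries in fixed amounts, gave mean log2 ratios of -0.69 and -0.65 on the first and second array types. Scaling to the spike-ins shifted the median of all probe sets above the floor in both arrays to 0.69 and 0.63, and 6 of the 7 measured keratin ratios became positive. Krt4 then stood at 0.30, Krt19 at 0.13, the 3 Krt13 probe sets at 0.63, 0.53 and 0.47 and Krt7 at 0.96, while Krt8 stayed negative at -0.18. The direction given for a keratin here is relative to the typical probe set of its array. Only Krt7 and Krt8 kept their sign under all 9 scalings and floors tried. Spike-in scaling also made the median of every gene list below positive except that of the mesothelium list, at -0.013.

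**Figure D3:**
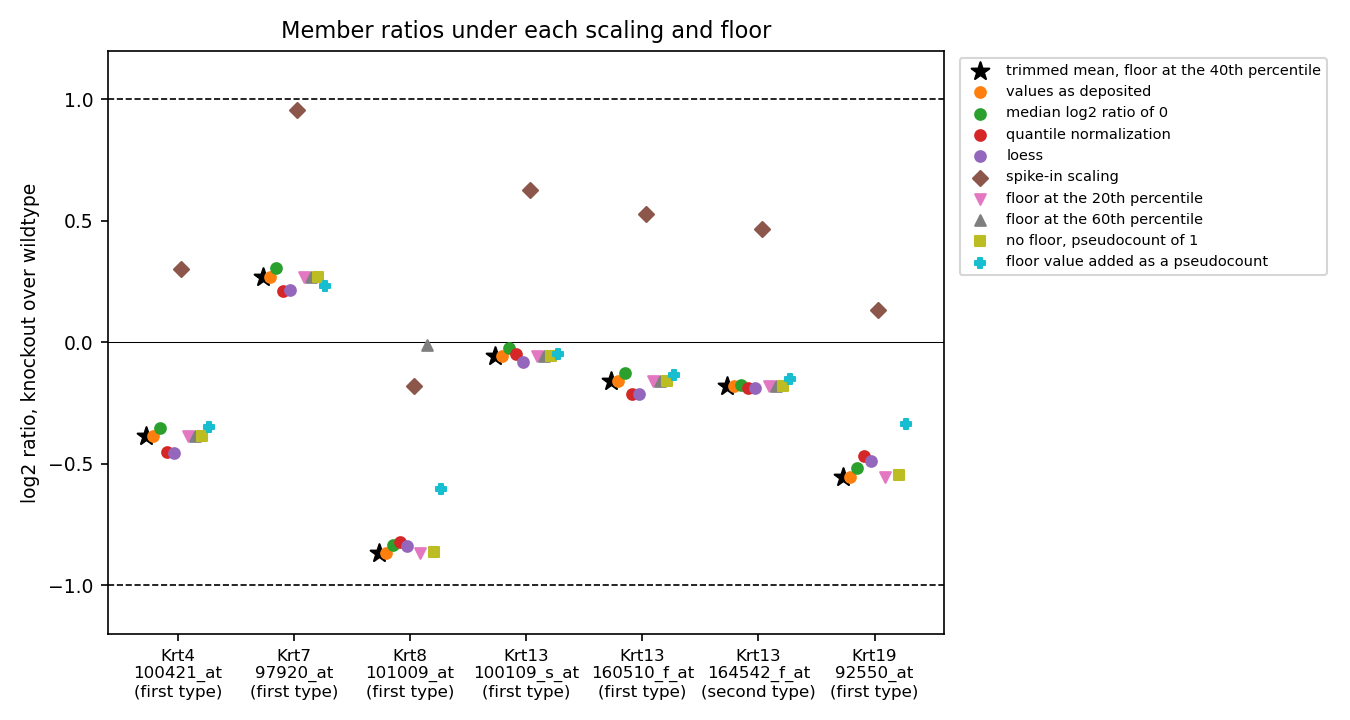
Log2 ratio of knockout over wildtype for each measured probe set of Krt4, Krt7, Krt8, Krt13 and Krt19 under 10 settings of scaling and floor. The reported setting is a black star and 2-fold is dashed. Brown diamonds (spike-in scaling) sit above the other settings for every probe set except Krt8, where the 60th-percentile floor gives -0.011, and no point passes 2-fold. Krt19 has no point for that floor, which both of its signals lie under.

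The other keratins of these arrays give the members their setting. On the first array type 27 further keratin genes had 39 probe sets, of which 25 were above the floor in at least 1 array. Of these 25, 1 was at least 2-fold higher in knockout and 2 lower. Over all tested probe sets there, dim ones included, 0.869% were higher by that size and 1.22% lower. Those shares, or 1.48% and 1.84% on the second type, are also the background for the gene lists below. The 25 had a median log2 ratio of -0.031, and 12 were positive and 13 negative. On the second array type 11 of 13 probe sets of 12 further keratin genes were above the floor, none past 2-fold, with a median of 0.19. The lower ones were Krt16, a keratin of wounded and stressed epidermis, 2.24-fold lower at 763 in knockout and 1712 in wildtype, and the hair keratin Krt35, 2.08-fold lower at 101 in knockout and 210 in wildtype. Neither held on another probe set, since Krt16 had a ratio of 0.51 on the second type and Krt35 one of -0.031 on its other probe set, and under spike-in scaling their lower ratios were -0.48 and -0.37. The higher one was the hair keratin Krt86, 2.01-fold on its only probe set, at 519 in knockout and 258 in wildtype. Under quantile normalization Krt86 stood at 0.98 and Krt35 at -0.99, both short of 2-fold, and Krt16 at -1.23.

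A list made here of further simple or mucosal keratins held Krt20, Krt23, Krt36 and Krt80, a name that is loose for Krt36 and Krt80. Krt23 had a signal of 10393 in knockout against 11850 in wildtype on the second array type, a ratio of -0.19. Krt80 read 5544 in knockout against 5008 in wildtype there, a ratio of 0.15. Krt36, a keratin of tongue and nail, read 117 in knockout against 132 in wildtype on the first type, a ratio of -0.18. Krt20, which Merkel cells express together with Krt8 and Krt18, was below the floor at 49.5 in knockout and 51.6 in wildtype. These 3 ratios were smaller than the median difference between probe sets of 1 gene. Of the suprabasal and basal keratins none of 4 measured genes on the first type or 2 on the second passed 2-fold. On the first type Krt1 stood at -0.51 and Krt10 at -0.47, but Krt77 at 0.21 and Krt2 at 0.25. On the second type Krt77 stood at 0.19 and Krt15 at 0.25. The lower values depended on the scaling. Under quantile normalization of the first type Krt1 stood at 0.034 and Krt10 at 0.050, with Krt77 at 0.33 and Krt2 at 0.29.

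**Figure D4:**
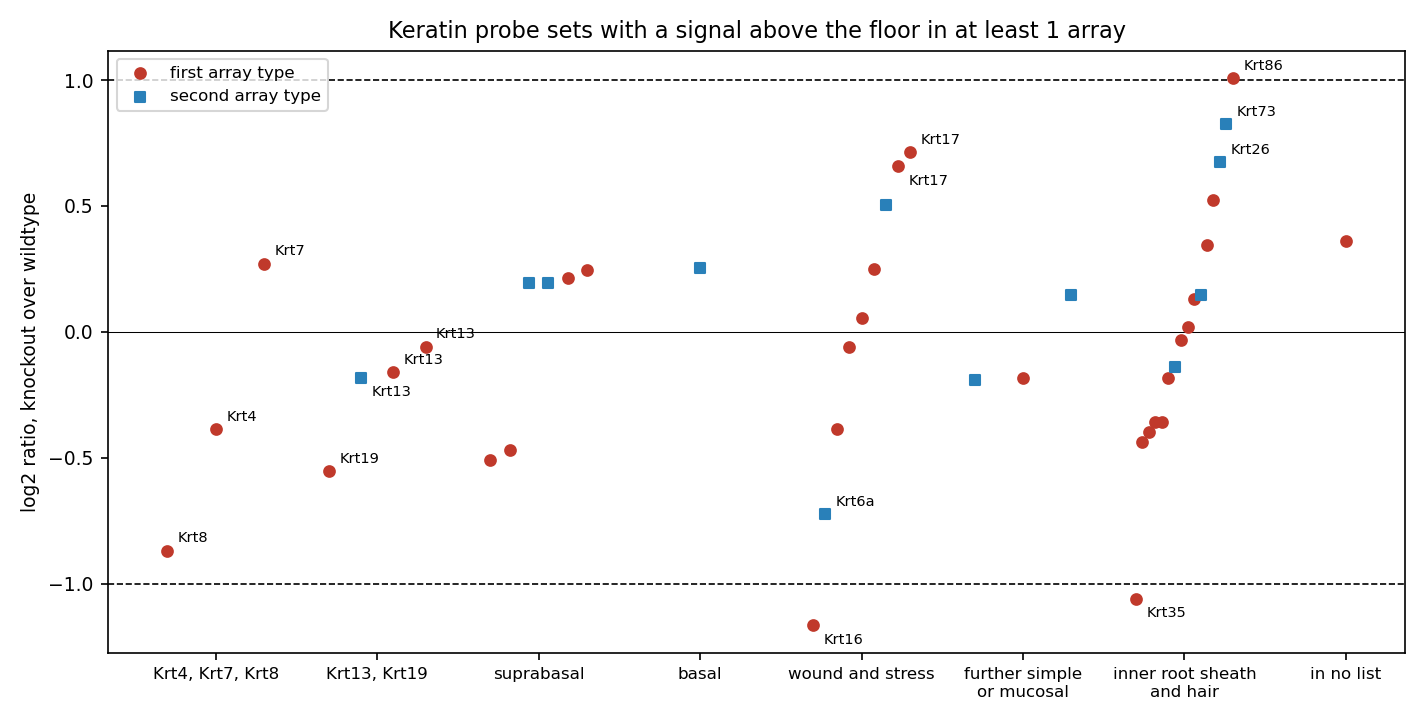
Log2 ratio of knockout over wildtype for every keratin probe set above the floor in at least 1 array, grouped by the keratin lists used here, with circles for the first array type and squares for the second. The dashed lines mark 2-fold, and Krt16, Krt35 and Krt86 lie outside them while all 7 probe sets of Krt4, Krt7, Krt8, Krt13 and Krt19 lie inside.

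Genes that anchor or bind keratin filaments differed little. Of 12 measured on the first array type 1 was at least 2-fold higher and none lower, with a median log2 ratio of -0.075. The higher one was Trp63, a transcription factor of basal keratinocytes rather than an anchor, at 1906 in knockout and 913 in wildtype, 2.09-fold. The 3 on the second type, the desmosomal genes Evpl, Pkp2 and Pkp3, had ratios from -0.15 to 0.59. Other intermediate filament genes had a median of -0.22 over 7 on the first type, Lmna the brightest at 10283 in knockout and 11983 in wildtype, and 0.091 over 2 on the second, with none past 2-fold. A further list, made here, held transcription factors as possible regulators of simple keratin genes, a role that was not tested. None of 14 passed 2-fold on the first type, with a median of 0.21, and none of 7 on the second, with a median of 0.33. The brightest were Klf4, at 8495 in knockout and 10475 in wildtype, and Jund, at 7277 in knockout against 11255 in wildtype, on the first type. On the second they were Fosl2, at 18435 in knockout and 12626 in wildtype, and Sp1, at 9572 in knockout and 8244 in wildtype.

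General epithelial genes, which share simple epithelia with Krt8, held 1 gene past 2-fold among 13 on the first array type. It was Prom1, a protein of the apical membrane of simple epithelia, at least 2.42-fold lower, with 70.8 in knockout, below the floor, and 188 in wildtype. The list median was -0.18 on that type and -0.035 over 4 genes on the second, where none passed.

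Markers of cells known to hold these keratins were read beside them. Of 13 Merkel cell genes on the first array type 11 were below the floor in both arrays, among them Atoh1 at 12.4 in knockout and 8.13 in wildtype and Sox2 at 44.2 in knockout and 35.3 in wildtype. Chga read 465 in knockout and 510 in wildtype, and Isl1 was above the floor in wildtype only, at 30.8 in knockout and 114 in wildtype. The summed signal of the 13 was 759 in knockout and 890 in wildtype, most of it Chga. Both markers on the second type had signals under its floor in knockout. They were Rab3c, at 25.2 in knockout and 148 in wildtype, and Snap25, at 5.15 in knockout and 10.9 in wildtype, which sum to 30.3 in knockout and 159 in wildtype. For mesothelium, a simple epithelium that lines body cavities, 3 of 5 genes were on the first type and summed to 170 in knockout and 254 in wildtype. Msln and Wt1 were below the floor there and Upk3b read 118 in knockout and 192 in wildtype, a ratio of -0.70. The part of these cells in the Krt8 and Krt19 values was not tested.

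Periderm genes summed to 21496 in knockout and 20777 in wildtype over 6 genes on the first array type, with 4 measured, Trp63 past 2-fold among them and Cldn6 below the floor. Most of that sum was Sfn, at 11886 in knockout and 14359 in wildtype, which is also a keratinocyte marker here, and Trp63 is known from basal keratinocytes too. On the second type 5 summed to 13461 in knockout and 15454 in wildtype, with none of 4 measured genes past 2-fold, although most of that sum was Krt23. Oral and oesophageal genes summed to 2846 in knockout and 2349 in wildtype over 8 genes of the first type, and none of 6 measured passed 2-fold. Among them Sprr3 read 356 in knockout and 570 in wildtype, and Rptn read 1488 in knockout against 1001 in wildtype. On the second type 3 of them summed to 33968 in knockout and 35773 in wildtype, nearly all from Cnfn, which skin also expresses. Gland genes, where Krt7 and Krt19 are known, summed to 2051 in knockout and 1806 in wildtype over 11 genes of the first type, with 6 below the floor, Foxa1 among them, and none of 5 measured past 2-fold. The brightest, Slc12a2, read 1160 in knockout and 1020 in wildtype. Neither gland gene of the second type was measured, Aqp5 at 152 in knockout and 54.3 in wildtype and Atp6v1b1 at 43.1 in knockout and 125 in wildtype. Sebaceous genes summed to 5111 in knockout and 3273 in wildtype over 6 genes of the first type. That difference came from Scd1, at 3208 in knockout and 1300 in wildtype. Of 5 measured, Scd1 was 2.47-fold higher and Plin2 2.27-fold lower in knockout. Krt79, the sebaceous gene of the second type, read 26351 in knockout and 23781 in wildtype, a ratio of 0.15. The part of these cells in the Krt4, Krt7 and Krt13 values was not tested.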

How the data were processed

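The authors' deposited intensity values, 1 linear signal per probe set and array, come from MAS5 as named in the submitters' processing notes. The sources used here give no version, scaling target or detection call. Within each array type the 2 arrays were brought to 1 common 2% trimmed mean. Signals below the mean of their 40th percentiles were set to that floor, and log2 ratios, knockout over wildtype, were computed for 12422 and 12411 probe sets without controls. At least 2-fold was the rule of size. Genes on both types were fitted with limma 3.58.1 in R 4.3.3 (Benjamini-Hochberg adjustment, array type as block). Symbols were updated by gene identifier with RefSeq. A listed gene took its probe set of highest mean signal and was measured when its mean log2 signal lay above the floor. From each list the genes past 2-fold were named, at most 4, or else the brightest 2, and all keratins could be named. Other genes were chosen after their values were seen. Alternatives changed 1 scaling, floor or fold at a time. Steps were tested on simulated data. The number of arrays limits the precision. Members and lists were chosen with earlier results of these data known.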

Additional observations from a re-analysis of the deposited data

How the results depend on the processing

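Over the 9 scalings and floors tried, no measured member ratio passed 2-fold. Of 62 values, 54 moved by less than 0.40 log2 units on the first type or 0.37 on the second. These limits are an SD from the differences between the brightest pair of probe sets of 1 gene. Many values had little room to move, since a floor under both signals changes no ratio and the deposited trimmed means were already nearly equal. The sign changed in 5, all under spike-in scaling, and no floor or pseudocount could have turned one. Without a floor (pseudocount of 1), 1 member probe set was at least 2-fold lower on each array type, those of Krt18 and Krt7, both too dim to compare otherwise, and with a limit of 1.5-fold 1 was lower, Krt8. Krt13 in limma turned to 0.50 under spike-in scaling, and the array type alone gave it -0.16 and -0.18. The fit without the array type as replicate block left its ratio at -0.17 with an adjusted p of 1.00 from limma, and over the alternatives that p ran from 0.0758 to 1.00. All tested probe sets at least 2-fold higher and lower numbered 1432 and 51 after spike-in scaling, 434 and 700 for a 20th-percentile floor, 40 and 40 for a 60th-percentile one, 833 and 1263 without a floor and 59 higher with the floor added as a pseudocount on the first type. On the second they numbered 1415 and 60, 732 and 819, 38 and 58, 1246 and 1361, and 110 higher. Listed genes outside the members (3 higher, 4 lower on the first type, 0 of either on the second) were tried under settings chosen after seeing the data. They numbered 16 and 0 on the first type under spike-in scaling, 5 and 10 at the 20th percentile, 1 lower at the 60th, 7 and 16 without a floor and 1 lower with the floor added. On the second they numbered 9 higher under spike-in scaling, 1 and 4 at the 20th percentile and 2 and 5 without a floor. Genes past limma's adjusted p numbered 601 under spike-in scaling, chosen for limma after seeing the data, 8 under loess and 0 under the median, quantile, floor and block alternatives. The cause of these moves was not tested, and dim signal limits Krt18, Krt19 and Krt8 most.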

Other observations

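Krt12, a type I keratin known as the keratin of the corneal surface, had a measurable signal in these skin samples and belonged to none of the lists. It was singled out after its values were seen. Its probe set on the first array type read 3259 in knockout against 2536 in wildtype, a log2 ratio of 0.36, and 1.05 under spike-in scaling. All 6 member probe sets below the floor also read lower in knockout than in wildtype, with signals between 1.62 and 44.0, where the values have no reliable order. The deposited values do not show whether the Krt12 signal comes from its own transcript.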
